A study of Mus musculus with 6 samples.

Results

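TAK1, encoded by Map3k7, and its adaptor proteins TAB1, TAB2 and TAB3, encoded by Tab1, Tab2 and Tab3, were followed on 6 Affymetrix arrays of sorted mouse bone marrow B cells. Every probe set annotated to 1 of these 4 genes and to no other gene was taken, and each is given separately. These 4 genes, of 18193 with a probe set of their own, had 11 of the array's 45101 probe sets, of which 6 read Map3k7, 2 Tab1, 2 Tab2 and 1 Tab3. T, erythroid, myeloid and NK cells had been depleted from the marrow through CD3, Ter119, CD11b, Gr1 and DX5, and the remaining cells were stained and sorted by their κ or λ light chain. The TAK1-deficient Igκ+ group carries the genotype label mb-1/TAK1f/f, and the wild-type Igκ+ and wild-type Igλ+ groups carry mb-1/TAK1+/+, with 2 arrays in each group. All mice were of the C57BL/6 strain, of mixed gender and 8 to 12 weeks old, and were not treated. The label mb-1, an older name of the B cell gene Cd79a, is shared by all groups. The labels mention no recombinase, no measure of how far the floxed gene was deleted and no number of pooled animals, and the names of the groups follow the labels.

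TAK1 is a kinase of the MAP3K class that receives signals from Toll-like, interleukin-1, TNF-family and antigen receptors. TAB1 binds the kinase and promotes its activation, whereas TAB2 and TAB3, which are closely related to each other, hold the complex on polyubiquitin chains made by TRAF ligases. Active TAK1 phosphorylates the IκB kinase complex, which releases NF-κB, and the MAP2 kinases that lead to JNK and p38.

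The values are MAS5 signals, that is, probe set intensities on a linear scale, and 2 arrays a group limit their precision. The arrays of the TAK1-deficient group stood apart from the other 4. Their median signal was 324 and 323, against 44.9 to 59.1 on the others, and the geometric mean of the spiked controls was 47043 and 41197, against 3985 to 4608. The 95th percentile of the controls that were not spiked in, called background below, was 77.7 and 75.7, against 10.3 to 17.4. For Actb, 3′ over 5′ signal was 6.28 and 4.18, against 1.25 to 1.58. All 9 B cell markers analysed were above background on every array. The summed signal of 8 T cell markers was 4368 and 4603 in TAK1-deficient cells, against 205 to 296 in wild-type cells, and that of 6 stromal and endothelial markers was 4811 and 4465, against 974 to 1256. Bcl11b gave 2431 and 2313 of the T cell sums. Pecam1 gave 685 to 1060 of the wild-type stromal and endothelial sums, but 522 and 381 of the TAK1-deficient ones. Dim probe sets were higher in general on these arrays, and with the level adjustment described below 2 of the 8 T cell markers were called higher and 1 lower, and their median log2 difference was 0.36, against 3.29 without it. Of the 6 stromal and endothelial markers 5 were called higher and Pecam1 lower against wild-type Igκ+ cells. With the level adjustment 2 were called higher and 0 lower, with a median of 1.32, against 3.67 without it. Of all genes 49.2% were called higher, and 23.4% with the level adjustment. Summed signals of 8 granulocyte, 5 monocyte, 5 erythroid and 4 megakaryocyte markers were highest on wild-type Igλ+ replicate 1, where granulocyte markers reached 36120, against 313 to 8261 on the other 5 arrays. In wild-type Igκ+ cells these sums were also higher on replicate 1 than on replicate 2. Granulocyte markers had 5198 against 313 there, and monocyte markers 1766 against 544. The 4 NK cell markers summed to 1095 on both TAK1-deficient arrays and to between 950 and 2863 on the wild-type arrays, and 0 markers had a signal of 0. The part of these differences in the results below was not tested.

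The start regions of Map3k7, Tab2 and Tab3 are shown here, because these are the member genes with a matched window. RefSeq promoter windows on GRCm38.p6, from 250 bases before to 50 after a listed gene start, were matched for 3 of the 4 genes and not for Tab1. The Tab2 and Tab3 windows shown hold the 5′ end of the RefSeq gene, and the Map3k7 window does not. Capitals mark a match to the NF-κB consensus motif in the Map3k7 window and to the core motif of the zinc finger factor YY1, CCATNTT, in the Tab2 and Tab3 windows. The letters run 5′ to 3′ along the gene.
Map3k7, plus strand of chr4:31963857-31964156: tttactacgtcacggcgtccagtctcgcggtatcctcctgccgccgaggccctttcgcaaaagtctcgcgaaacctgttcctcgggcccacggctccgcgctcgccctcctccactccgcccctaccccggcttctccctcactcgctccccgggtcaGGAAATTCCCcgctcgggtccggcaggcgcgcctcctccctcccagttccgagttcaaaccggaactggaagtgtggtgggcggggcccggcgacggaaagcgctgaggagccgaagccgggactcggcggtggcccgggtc
Tab2, minus strand of chr10:7956074-7956373: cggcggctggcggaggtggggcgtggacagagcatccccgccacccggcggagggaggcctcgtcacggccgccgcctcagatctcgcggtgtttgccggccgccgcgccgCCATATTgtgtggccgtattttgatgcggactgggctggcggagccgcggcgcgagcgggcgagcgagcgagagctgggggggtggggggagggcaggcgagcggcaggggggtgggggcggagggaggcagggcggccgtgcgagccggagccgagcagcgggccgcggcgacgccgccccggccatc
Tab3, plus strand of chrX:85573772-85574071: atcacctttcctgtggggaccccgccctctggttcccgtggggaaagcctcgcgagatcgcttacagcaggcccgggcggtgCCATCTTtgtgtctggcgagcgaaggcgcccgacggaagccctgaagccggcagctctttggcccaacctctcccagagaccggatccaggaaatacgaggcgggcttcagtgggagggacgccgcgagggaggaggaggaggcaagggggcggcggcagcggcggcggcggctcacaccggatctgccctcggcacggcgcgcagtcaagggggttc
The Map3k7, Tab2 and Tab3 windows were rich in G and C (69%, 78% and 69%, against a median of 52.7% over 32851 windows). They held 36, 44 and 30 CpG dinucleotides, against a median of 7. The NF-κB consensus was matched on the reverse strand of the Map3k7 window at positions -92 to -83, counting the listed start as 0, and 8.46% of all windows hold it on either strand. The YY1 core was matched in the Tab2 and Tab3 windows and is held by 16.1% of all windows. The GC box GGGCGG was matched in each of the 3 windows and in 35.7% of all. Neither TATAAA (13.6% of all windows) nor CCAAT (37.4%) was matched in them. These motifs were searched on both strands and chosen after the sequences were seen, and no matches overlapped. Tab2 has a further listed start, whose window had 38.7% G and C and held a match to CCAAT and a match to the YY1 core. A match describes the letters, and no binding was measured here.

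In wild-type cells the signals of these genes differed little between cells with either light chain. Of the 11 probe sets, 9 were above background on every array. The Tab1 probe set 1447692_x_at was at or below it on every array, with 1.27 and 25.8 in TAK1-deficient Igκ+, 6.20 and 4.44 in wild-type Igκ+, and 7.93 and 13.0 in wild-type Igλ+ cells, so no difference is given for it. The suffix _x_at marks probe sets with probes that may also bind other transcripts.

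Among the Map3k7 probe sets, 1419988_at had 2149 and 1957 in wild-type Igλ+ cells, against 2196 and 1805 in wild-type Igκ+ cells. 1455441_at had 1418 and 1921 in wild-type Igλ+ cells, against 1766 and 1822 in wild-type Igκ+ cells. The values of both light chain groups overlapped at each of these probe sets. Those of 1449693_at, which was designed from the same source sequence as 1419988_at, overlapped as well, with 1124 and 1037 in wild-type Igλ+ and 1211 and 894 in wild-type Igκ+ cells. Tab2 probe set 1423462_at had 4668 and 4846 in wild-type Igλ+ cells, against 4909 and 4602 in wild-type Igκ+ cells, again with overlap. Tab3 probe set 1428762_at had 1098 and 1297 in wild-type Igλ+ cells, against 1367 and 1598 in wild-type Igκ+ cells. It was the member above background at which both Igλ+ values lay below both Igκ+ values.

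Differences were tested with limma on log2(signal + 16), a scale that understates changes of dim probe sets, over all 45037 probe sets that are not controls, and p-values were adjusted by Benjamini-Hochberg and called under 0.05. Between wild-type Igλ+ and wild-type Igκ+ cells 0 of the 11 member probe sets passed in limma, against 0% of all probe sets. At an unadjusted p under 0.05 stood 0 members and 891 probe sets in all (1.98%). The groups did not overlap for 2 of the 11 members, Tab3 and the Tab1 probe set at background, and for 27.1% of all probe sets.

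The log2 difference between wild-type Igλ+ and wild-type Igκ+ cells was 0.04 for Map3k7 1419988_at (95% interval -0.65 to 0.74), -0.12 for 1455441_at (-0.71 to 0.47) and 0.05 for 1449693_at (-0.71 to 0.82). It was 0.00090 for Tab2 1423462_at (-0.28 to 0.28) and -0.21 for Tab2 1451003_at (-0.75 to 0.33). It was -0.30 for Tab3 (-0.84 to 0.23) and 0.15 for Tab1 1426898_at (-0.62 to 0.92). The brighter Tab2 probe set thus had the narrowest interval, and the others allow larger changes in either direction. The remaining Map3k7 probe sets had differences of -0.15, -0.20 and 0.09. Since no label tells whether the replicates are separate animals, the p-values measure only the spread between samples, and that spread may be technical.

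**Figure D1:**
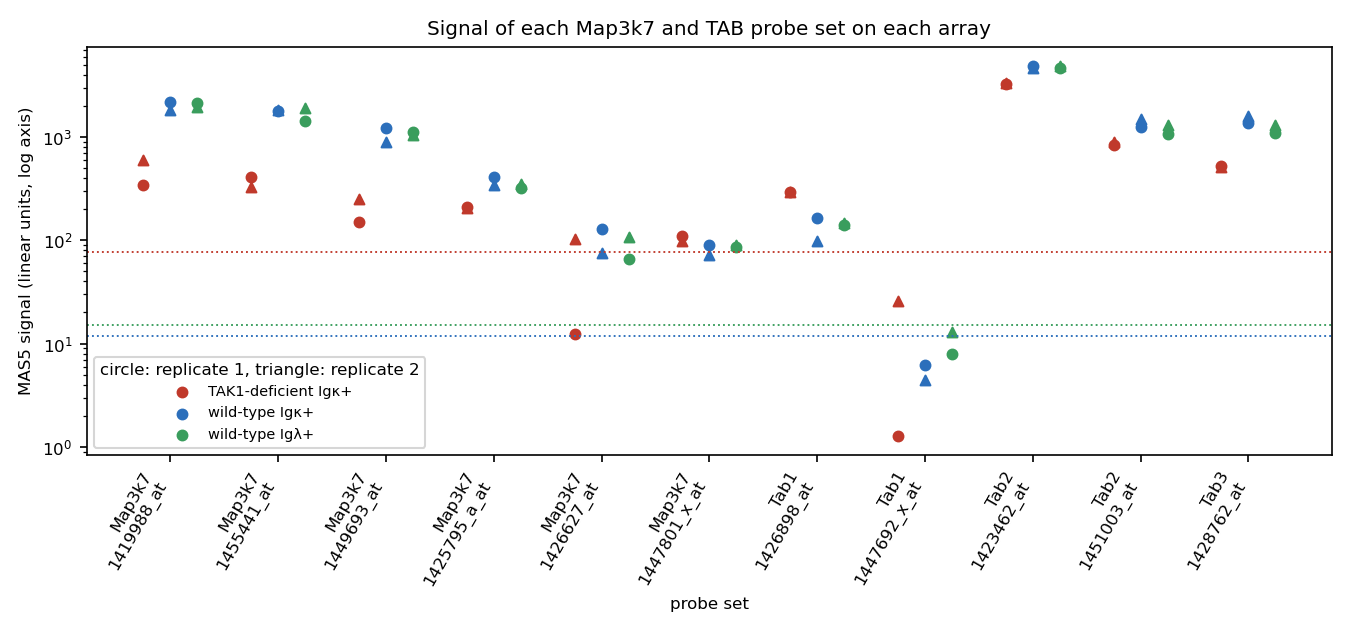
MAS5 signal (log axis) of each of the 11 probe sets, with TAK1-deficient Igκ+ cells in red, wild-type Igκ+ cells in blue and wild-type Igλ+ cells in green, circles for replicate 1 and triangles for replicate 2. Dotted lines give each group's background, the mean over its arrays of the 95th percentile of controls that were not spiked in; the 3 brightest Map3k7 probe sets lay at 149.9 to 599 in TAK1-deficient cells and at 894 to 2196 in wild-type cells.

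In TAK1-deficient Igκ+ cells the brightest probe sets of Map3k7 were 4.25 to 5.02 times lower than in wild-type Igκ+ cells on the log2(signal + 16) scale. The probe set of Tab3 was 2.79 times lower, those of Tab2 were 1.45 and 1.55 times lower, and that of Tab1 was 2.14 times higher. Of the 11 member probe sets 7 fell and 1 rose in limma. Among all probe sets 21.8% fell and 56.8% rose, 78.6% in all, so that passing the test does not set a member apart. The groups did not overlap for 9 of the 11 members and for 90.3% of all probe sets. Without wild-type Igκ+ replicate 2 the members that passed numbered 5, all lower, beside 19% of all probe sets lower. The split depended on the scaling. Once arrays were quantile normalized 9 members were lower and 0 higher, with 34.3% of all probe sets lower. The Tab1 probe set at background was among the 9. When they were median centred 10 were lower and 0 higher (42.8% of all lower), and likewise when they were scaled on the spiked controls (47.4% of all lower). With the level adjustment described below 5 were lower and 1 higher, and the Tab1 probe set at background was again among those lower. In sorted bulk RNA, fewer cells with a transcript and less RNA per cell cannot be told apart.

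Map3k7 is the gene targeted in these mice. Its probe set 1419988_at had 346 and 599 in TAK1-deficient Igκ+ cells, against 2196 and 1805 in wild-type Igκ+ cells. The log2 difference was -2.09 ± 0.29 (SE, limma adjusted p = 0.000437). 1455441_at had 412 and 331 in TAK1-deficient Igκ+ cells, against 1766 and 1822 in wild-type Igκ+ cells, a difference of -2.23 ± 0.25 (limma adjusted p = 0.000140). At both probe sets the TAK1-deficient values lay far below the wild-type ones and above their own background. 1449693_at had 149.9 and 251, against 1211 and 894 in wild-type Igκ+ cells, a difference of -2.33 ± 0.32 (limma adjusted p = 0.000410). These 3 readings of the gene moved by like amounts. They come from the same RNA, and 2 of them share a source sequence, so they are not separate samples. All 3 were also below 0 when quantile normalized (-4.04 to -2.78), median centred (-4.81 to -4.69) or scaled on the spiked controls (-5.48 to -5.36). The latter 2 scalings lowered every member above background, Tab1 included, so they could not have turned these values. With the level adjustment described below the values were -1.18 to -0.62, and 1419988_at did not pass (limma adjusted p = 0.0983).

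The other 3 Map3k7 probe sets were dimmer and moved less. 1425795_a_at, whose suffix marks probes shared by several transcripts of a gene, had 212 and 203 in TAK1-deficient Igκ+ cells, against 412 and 341 in wild-type Igκ+ cells. Its difference was -0.81 ± 0.28 (limma adjusted p = 0.0310), and it did not pass when any 1 of the 4 arrays compared was left out (limma adjusted p from 0.0587 to 0.137) or with a filter at the 40th percentile of mean signal (0.0517). 1426627_at had 12.4 and 102, against 129 and 75.6 in wild-type Igκ+ cells, so that its groups overlapped and 1 TAK1-deficient array was below background. Its difference was -0.99 ± 0.65 (limma adjusted p = 0.194), and without that array, TAK1-deficient replicate 1, it was 0.03. It passed when quantile normalized (-2.69, limma adjusted p = 0.000539), median centred (-2.80) or scaled on the spiked controls (-3.20). 1447801_x_at had 109 and 98.5, against 90.5 and 72.8 in wild-type Igκ+ cells, a difference of 0.30 ± 0.28 (limma adjusted p = 0.341). Both probe sets had TAK1-deficient signals of little more than background or below it. Where the probes lie relative to the floxed part of the gene is not known here, so the Map3k7 signal does not measure the deletion.

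Tab1, the activating partner of the kinase, was read above background by 1426898_at alone. It had 295 and 292 in TAK1-deficient Igκ+ cells, against 166 and 99.1 in wild-type Igκ+ cells. Both TAK1-deficient arrays were above both wild-type ones, and the difference was 1.10 ± 0.33 (limma adjusted p = 0.0165). It did not pass without TAK1-deficient replicate 1 (limma adjusted p = 0.0836), without TAK1-deficient replicate 2 (0.0801) or without wild-type Igκ+ replicate 2 (0.0986). Its direction turned with other scalings of the arrays, to -1.13 when quantile normalized, -1.37 when median centred and -2.01 when scaled on the spiked controls.

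Tab2, the adaptor that holds the complex on ubiquitin chains, had the smallest fold among the members that fell on the deposited scale. 1423462_at had 3262 and 3291 in TAK1-deficient Igκ+ cells, against 4909 and 4602 in wild-type Igκ+ cells. Its difference was -0.53 ± 0.12 (limma adjusted p = 0.00453), and it was 0.13 when quantile normalized, -3.23 when median centred and -3.97 when scaled on the spiked controls. 1451003_at, which shares its source sequence with the first, had 844 and 903, against 1251 and 1491 in wild-type Igκ+ cells, a difference of -0.64 ± 0.23 (limma adjusted p = 0.0350). The groups did not overlap at either probe set. The second did not pass without any 1 of the 4 arrays compared (limma adjusted p from 0.0577 to 0.164) or when quantile normalized (-0.35, 0.244). With eBayes run without a trend neither Tab2 probe set passed (limma adjusted p = 0.0646 and 0.0516).

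Tab3, the close relative of Tab2, had a single probe set, 1428762_at. It had 523 and 515 in TAK1-deficient Igκ+ cells, against 1367 and 1598 in wild-type Igκ+ cells. The difference was -1.48 ± 0.23 (limma adjusted p = 0.000698), larger than the spread within either group. It was -1.97 when quantile normalized, -4.09 when median centred and -4.78 when scaled on the spiked controls. Its 95% interval was -2.02 to -0.94, beside -0.82 to -0.25 for Tab2 1423462_at, and the difference between both genes was not tested.

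The size of a change followed the brightness of a probe set throughout the array. When all probe sets were ranked by their mean wild-type level and cut into 10 bins of equal size, the dimmest bin had a median log2 difference of 3.12 between TAK1-deficient and wild-type Igκ+ cells and the brightest bin one of -1.46, and over all probe sets the median was 1.53. The bins that hold the 3 brightest Map3k7 probe sets, Tab3 and both Tab2 probe sets had medians of -1.33 and -1.46. Map3k7 lay below the median of its bin at each of its 6 probe sets, with -2.09, -2.23 and -2.33 at the bright ones, -0.81 against -0.61 at 1425795_a_at, and -0.99 and 0.30 against 1.67 at the dim ones. Both Tab2 probe sets lay above theirs. Tab3 had -1.48 against -1.33. Tab1 had 1.10 against 0.56, in a part of the range where the medians drop steeply from bin to bin.

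**Figure D2:**
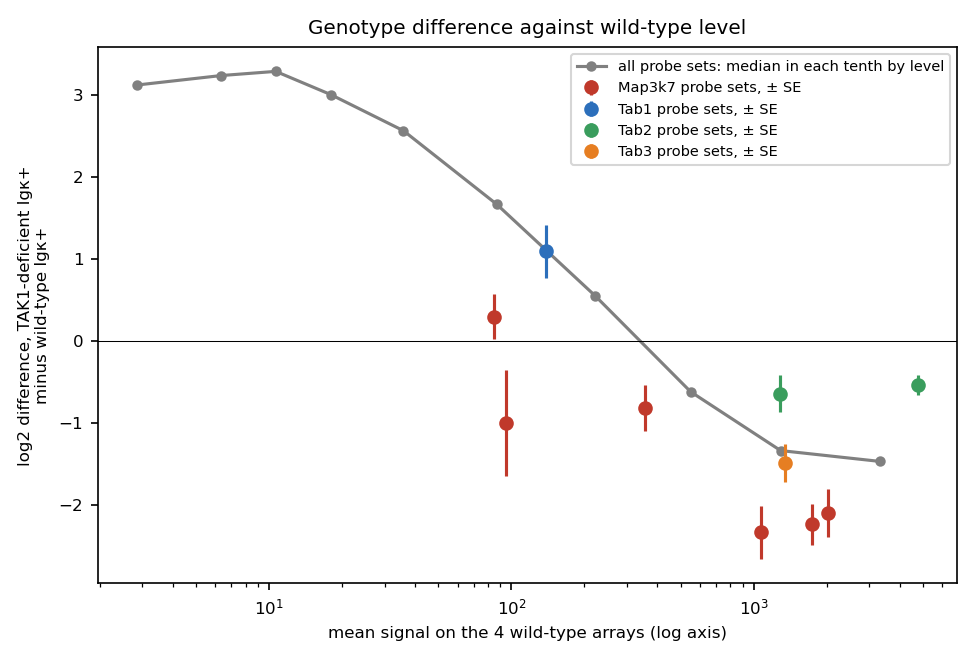
Log2 difference, TAK1-deficient Igκ+ minus wild-type Igκ+, of 10 member probe sets (coloured points, bars are the SE) against their mean signal on the 4 wild-type arrays (log axis). The grey line joins the medians of all probe sets in 10 bins of wild-type level, and it lies between 3.29 at low levels and -1.46 in the brightest bin, with Map3k7 below it and Tab2 above it.

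To set each member against probe sets of like brightness, the trend was taken off by a lowess curve fitted on each TAK1-deficient array, called the level adjustment. It was devised with earlier results of these data known. With it the median over all probe sets was -0.01 and 43.5% of them passed in limma, 19.9% lower and 23.6% higher. All 6 Map3k7 probe sets then had values below 0, between -2.56 and -0.62, as had 50.2% of all probe sets, and 4 of the 6 fell. These were 1426627_at (-2.56, limma adjusted p = 0.0182), 1447801_x_at (-1.35, 0.00845), 1449693_at (-1.18, 0.0204) and 1455441_at (-0.81, 0.0365). Of them 1426627_at and 1447801_x_at had TAK1-deficient signals of little more than background or below it. As deposited these dim probe sets differed by -0.99 and 0.30, beside a bin median of 1.67, and neither passed. The values of 1425795_a_at (-0.75, limma adjusted p = 0.0767) and 1419988_at (-0.62, 0.0983) did not pass. All 6 stayed below 0 when any 1 of the 6 arrays was left out. The number that fell was then 1 without TAK1-deficient replicate 1, without wild-type Igκ+ replicate 1 or without wild-type Igκ+ replicate 2, and 3 or 4 without another array.

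Tab2 moved the other way under the level adjustment. 1423462_at rose by 0.72 (limma adjusted p = 0.00341), and it also passed without each array in turn, with values from 0.65 to 0.80. 1451003_at had 0.63 (limma adjusted p = 0.0537). Tab3 had -0.19 (limma adjusted p = 0.520) and Tab1 1426898_at -0.03 (0.947).

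**Figure D3:**
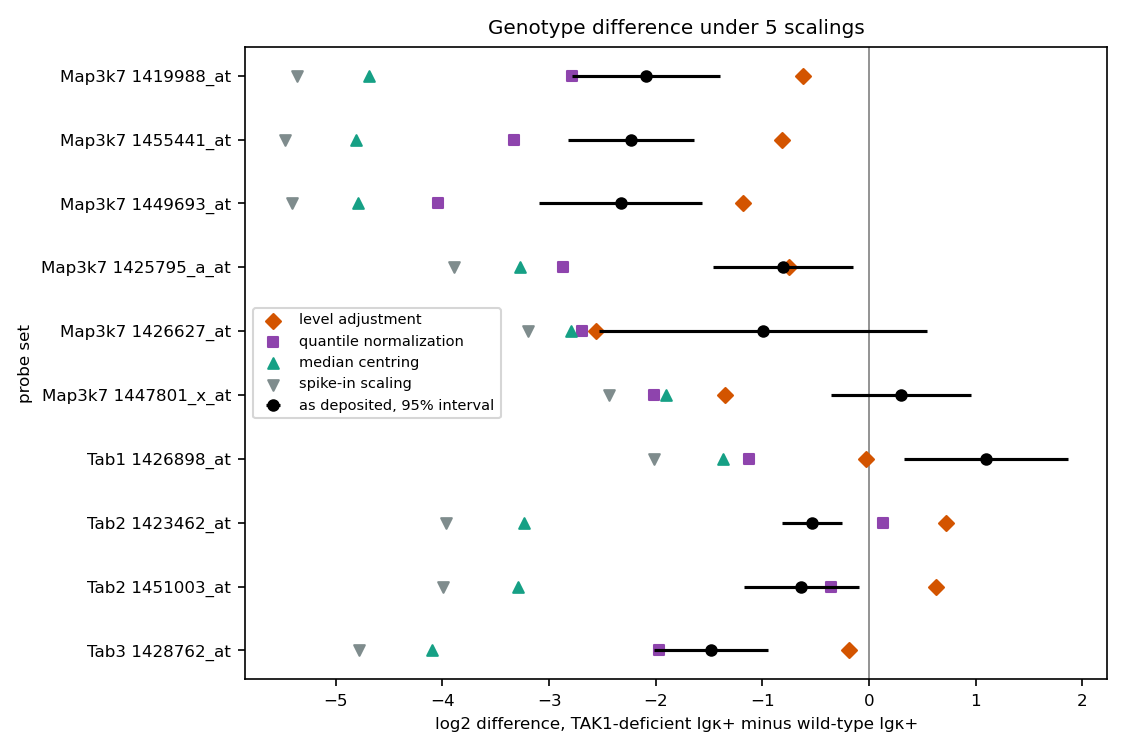
Log2 difference, TAK1-deficient Igκ+ minus wild-type Igκ+, of the 10 member probe sets above background on at least 1 array. Black points are the values as deposited with 95% intervals, and the other symbols give the values with the level adjustment, quantile normalization, centring on the median and scaling on the spiked controls; the 3 brightest Map3k7 probe sets are below 0 with each of these, and Tab2 1423462_at is at -0.53 as deposited and 0.72 with the level adjustment.

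The ratio of signals within an array does not depend on the factor by which the array was scaled. The log2 ratio of Map3k7 1455441_at to Tab2 1423462_at was -2.98 and -3.31 in TAK1-deficient Igκ+ cells, against -1.47 and -1.34 in wild-type Igκ+ cells. In wild-type Igλ+ cells it was -1.72 and -1.33. Both TAK1-deficient arrays thus had less Map3k7 signal relative to Tab2 than any wild-type array. This held for each of the 4 Map3k7 probe sets with a wild-type mean above 200, with changes in the mean log2 ratio against wild-type Igκ+ cells of -0.32 at 1425795_a_at and of -1.59, -1.74 and -1.89 at the others.

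Against Tab1, 4 of 4 ratios were lower on both TAK1-deficient arrays than on any wild-type array, with changes from -3.62 to -2.05. Against Tab3 it was 2 of 4. The ratio of 1419988_at to Tab3 was -0.60 and 0.22 in TAK1-deficient Igκ+ cells, against 0.68 and 0.18 in wild-type Igκ+ cells, so these groups overlapped. That of 1425795_a_at to Tab3 was -1.30 and -1.34, against -1.73 and -2.23 in wild-type Igκ+ cells, and was higher on both TAK1-deficient arrays. Such ratios show unequal change of 2 transcripts and do not say which of them changed, and the trend with brightness enters them as well. The bins of these Map3k7 probe sets had medians of -1.46, -1.33 and -0.61, and that of Tab1 0.56, a gap in the direction of the Tab1 ratios. How many other pairs of probe sets separate the arrays in this way was not counted. Single probe sets did not overlap between TAK1-deficient and wild-type Igκ+ cells in 90.3% of cases.

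**Figure D4:**
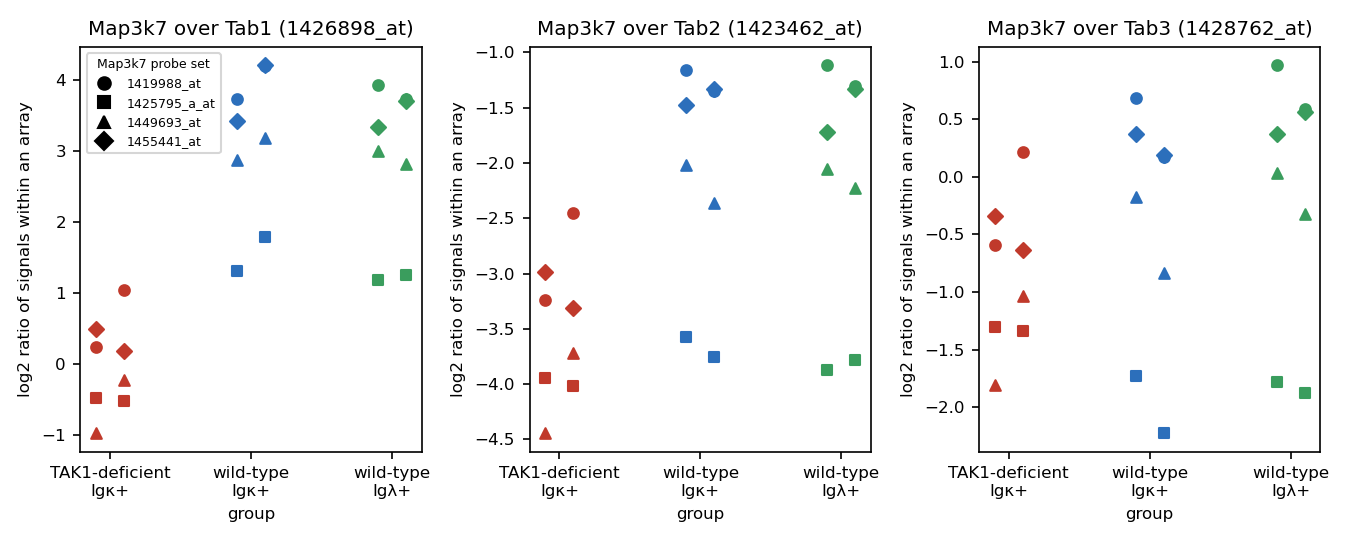
Log2 ratio of the signals of 4 Map3k7 probe sets (symbols) to the brightest probe set of Tab1, Tab2 and Tab3 on each array, with TAK1-deficient Igκ+ in red, wild-type Igκ+ in blue and wild-type Igλ+ in green and replicate 1 left of replicate 2. The 8 ratio points of Map3k7 over Tab2 in red run from -4.44 to -2.46, and for each symbol both red points lie below all 4 wild-type points in the Tab1 and Tab2 panels.

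TAK1-deficient Igκ+ cells were also set against wild-type Igλ+ cells, where genotype and light chain differ together. This comparison shares its TAK1-deficient arrays with the one above and is no separate evidence. Of the 11 members 5 fell and 1 rose in limma, against 22% and 55.8% of all probe sets (77.9% in all). When arrays were median centred or scaled on the spiked controls, 11 fell and 0 rose, the Tab1 probe set at background among them, and the share of all probe sets called lower was 41.9% and 47.2%. On the deposited scale the groups did not overlap for 9 of 11 members and 88.1% of all probe sets. Map3k7 had log2 differences of -2.13, -2.11 and -2.38 at 1419988_at, 1455441_at and 1449693_at, beside -2.09, -2.23 and -2.33 against wild-type Igκ+ cells. At 1425795_a_at the difference was -0.65 (limma adjusted p = 0.0654), beside -0.81. The dim probe sets 1426627_at and 1447801_x_at had -0.80 (limma adjusted p = 0.289) and 0.21 (0.504).

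Tab3 fell by 1.18 on the log2 scale against wild-type Igλ+ cells (limma adjusted p = 0.00232), and Tab2 1423462_at by 0.54 (0.00455). Tab2 1451003_at had -0.43 and did not pass (limma adjusted p = 0.122). Tab1 1426898_at rose by 0.95 (limma adjusted p = 0.0301), a call lost when any 1 of the 4 arrays compared was left out (limma adjusted p from 0.0556 to 0.125). With the level adjustment the values were -0.66, -0.69 and -1.23 for the bright Map3k7 probe sets, 0.72 and 0.84 for Tab2, 0.12 for Tab3 and -0.18 for Tab1. Of the 11 members 4 then fell and both Tab2 probe sets rose, against 22.3% and 22.5% of all probe sets (44.8% in all). Those that fell were Map3k7 1449693_at, 1426627_at and 1447801_x_at, and Tab1 1447692_x_at, which was at or below background on every array. Map3k7 1419988_at and 1455441_at did not pass (limma adjusted p = 0.0799 and 0.0596).

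By its brightest probe set, Map3k7 had a mean signal of 473 ± 179 in TAK1-deficient Igκ+, 2053 ± 135 in wild-type Igλ+ and 2001 ± 276 in wild-type Igκ+ cells (SD, n = 2 each), and the wild-type groups did not differ beyond their spread. Tab2 had 3276 ± 20.3 in TAK1-deficient Igκ+, 4757 ± 126 in wild-type Igλ+ and 4756 ± 217 in wild-type Igκ+ cells, and its wild-type groups did not differ beyond their spread either. Tab3 had 519 ± 5.97 in TAK1-deficient Igκ+, 1198 ± 141 in wild-type Igλ+ and 1482 ± 163 in wild-type Igκ+ cells. Tab1 had 294 ± 1.74 in TAK1-deficient Igκ+, 145 ± 4.74 in wild-type Igλ+ and 133 ± 47.2 in wild-type Igκ+ cells, an order of the deposited signals that turned under the other scalings given above. Between the wild-type groups 0 of these probe sets passed the test.

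Of genes that act upstream of TAK1, 17 of 21 listed were analysed, each by its brightest probe set over all arrays. In TAK1-deficient against wild-type Igκ+ cells 13 fell and 1 rose, with a median log2 difference of -1.63, while among genes in general 32% fell and 49.2% rose, with a median of 0.96. The list was chosen with earlier results of these data known. With the level adjustment 3 fell and 4 rose (median -0.41, against -0.03 for all genes, of which 19.1% fell and 23.4% rose).

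Traf2, a ubiquitin ligase adaptor of TNF receptors, averaged 57.1 in TAK1-deficient cells and 545 in wild-type Igκ+ cells, a log2 difference of -3.05, and was below background on 1 TAK1-deficient array. Bcl10, which links antigen receptors to TRAF6, averaged 731 in TAK1-deficient cells and 4756 in wild-type Igκ+ cells (-2.68). Both fell with the level adjustment as well (-2.52 and -1.41). Myd88, the adaptor of Toll-like receptors, differed by -2.48, with 1 TAK1-deficient array below background, and Traf5 by -2.03. Neither passed with the level adjustment (-1.46, limma adjusted p = 0.116, and -0.54, 0.0884). Traf6, the ligase whose ubiquitin chains TAB2 and TAB3 bind, fell by 1.36 (means of 221 in TAK1-deficient cells and 592 in wild-type Igκ+ cells), and had -0.78 with the level adjustment (limma adjusted p = 0.0866). Ube2n, the ubiquitin-conjugating enzyme that works with TRAF6, rose by 0.60, with means of 6646 in TAK1-deficient cells and 4410 in wild-type Igκ+ cells. It had 1.93 with the level adjustment (limma adjusted p = 0.000337).

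Of 8 listed substrates of TAK1, 6 were analysed, of which 2 fell and 1 rose (median -0.66), and 0 fell and 3 rose with the level adjustment. Among genes in general 32% fell and 49.2% rose, and with the level adjustment 19.1% fell and 23.4% rose. In the 3 brightest of the 10 bins by wild-type level, 40.2%, 75.4% and 86.0% of all probe sets fell as deposited. Ikbkg, the regulatory subunit of the IκB kinase complex, fell by 1.81 and Map2k4, a kinase of the JNK pathway, fell by 1.34, while Map2k6, a kinase of the p38 pathway, rose by 0.79. With the level adjustment these genes had -0.43, 0.0090 and 1.79, and of them only Map2k6 passed. Ikbkb, the catalytic subunit through which TAK1 reaches NF-κB, averaged 3965 in TAK1-deficient cells and 4715 in wild-type Igκ+ cells, a difference of -0.25 (limma adjusted p = 0.109), and had 1.02 with the level adjustment (0.000915). Of 8 negative regulators 6 fell and 0 rose (median -1.14), and 3 fell and 2 rose with the level adjustment, beside the same shares of genes in general. The log2 difference was -2.90 for Itch, a ubiquitin ligase, and -2.56 for Tnfaip3, which edits ubiquitin in the NF-κB pathway. It was -2.08 for Usp18 and -1.29 for Usp4, both of them ubiquitin-specific protease family members. With the level adjustment it was -1.44 for Itch, -1.14 for Tnfaip3, -1.23 for Usp18 and 0.15 for Usp4, which did not pass (limma adjusted p = 0.478).

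Of 16 other kinases of the MAP3K class 13 were analysed, and 8 fell and 2 rose (median -1.29), against 32% and 49.2% of all genes. With the level adjustment 6 fell and 3 rose, against 19.1% and 23.4% of all genes. Map3k14, the NF-κB-inducing kinase of the alternative pathway, averaged 40.4 in TAK1-deficient cells and 554 in wild-type Igκ+ cells. Both TAK1-deficient arrays were below background, so it is at least 6.11-fold lower, with background in place of the lower signals on the log2(signal + 16) scale (limma adjusted p = 7.72e-05). Map3k8 had -2.78 and Map3k11 -2.31, and Map3k6 rose by 2.93, with means of 251 in TAK1-deficient cells and 19.1 in wild-type Igκ+ cells. At Map3k6 the level adjustment left 0.34 (limma adjusted p = 0.409). In wild-type Igλ+ against wild-type Igκ+ cells 0 genes of the 4 lists passed in limma, as did 0% of all genes.

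**Figure D5:**
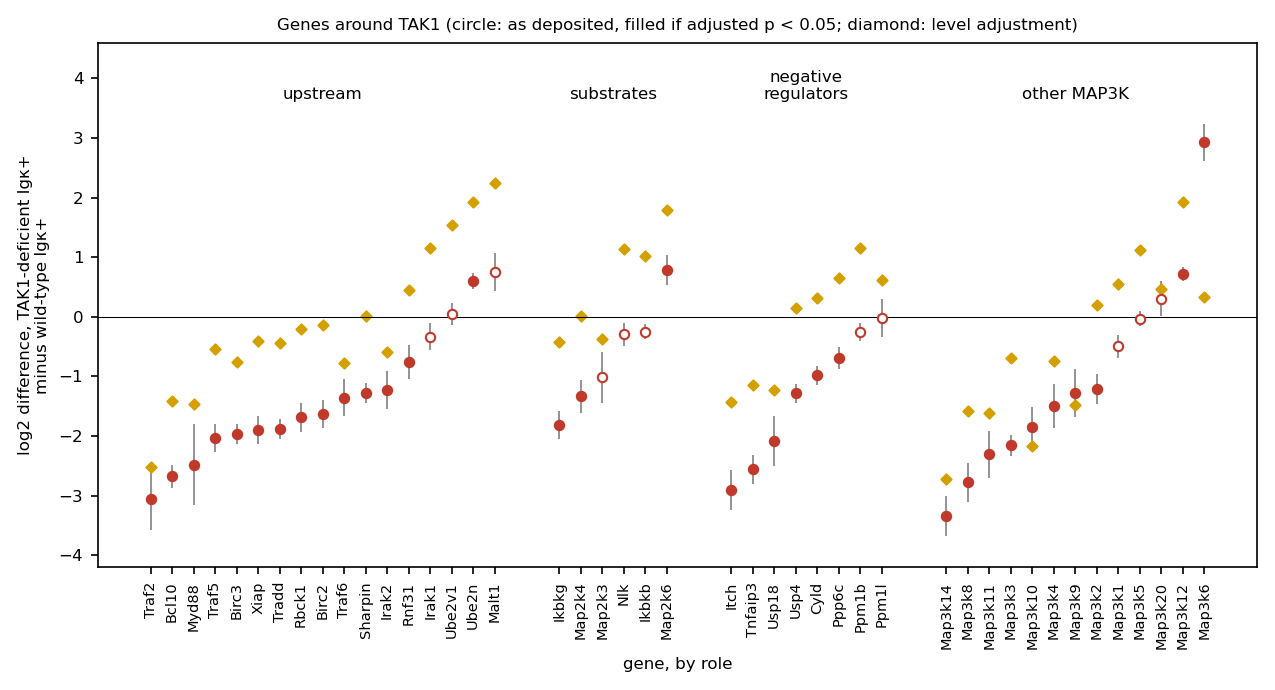
Log2 difference, TAK1-deficient Igκ+ minus wild-type Igκ+, of 44 genes upstream of TAK1, its substrates, its negative regulators and other MAP3K genes. Circles are values as deposited with the SE, filled where the limma adjusted p was under 0.05, and diamonds are values with the level adjustment; the circle of Map3k14 rests on TAK1-deficient signals below background. Most circles lie below 0, and most diamonds lie above their circle.

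The probe sets whose profile over the 6 arrays was most like each member were found by the root mean square difference of log2(signal + 16), centred on each probe set's mean, among 14409 to 14413 probe sets of other genes with a wild-type mean of at least 200. For Map3k7 1419988_at they were those of Ptpn18 (0.04), Zc3h7b (0.04) and Ep400 (0.04). Ptpn18 had signals of 39.2 and 75.8 on the TAK1-deficient arrays, where background was 77.7 and 75.7. For Tab1 they were Nudt13, Armc8 and Atpif1 (0.07 to 0.09), for Tab2 Ap4e1, St8sia4 and Parp1 (0.03 to 0.04), and for Tab3 Kbtbd2, Gid4 and Mynn (0.04 to 0.05). Within 0.2 lay 446 probe sets for Map3k7, 80 for Tab1, 1204 for Tab2 and 907 for Tab3. The 6 values of each profile share the same libraries and the division between TAK1-deficient and wild-type arrays.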

How the data were processed

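RNA of 6 samples was measured on 1 Affymetrix array each. The deposited values are probe set signals, array intensities on a linear scale for which the submitters' processing notes name MAS5; its version is not given in the sources. Trimming 2% of probe sets at either end gives every array a mean of 500. Groups and replicate numbers come from the titles, where a suffix marks replicate 2. Gene symbols are those of the platform annotation, and probe sets with several genes were left out of the gene lists; promoters are RefSeq's on GRCm38.p6. Columns mapped to no sample numbered 0.

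Signals were taken as log2(signal + 16) and fitted with limma (version 3.58.1, R 4.3.3), 1 mean per group over all 6 arrays, 3 residual degrees of freedom, eBayes with a trend, every probe set its own feature and no filter on low values. Genes of the lists were read by the probe set with the highest mean, and up to 4 examples a list were named by the size of their difference, with Traf6, Ube2n, Ikbkb and Map3k14 always given. Members, lists and alternatives, including the level adjustment (lowess, span 0.2), were chosen with earlier results of these data known. The limma fit was tested on simulated data with few shifted probe sets and no trend with brightness. That test did not cover the scalings or the level adjustment. The replicate numbers were not used to pair the samples, and whether samples of the same number share a preparation was not tested. No sequence of a protein was used.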

Additional observations from a re-analysis of the deposited data

How the results depend on the processing

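The alternatives were pseudocounts of 1 and 64, filters at the 40th and 60th percentile over all arrays and at the 40th over wild-type arrays, 4 other scalings, 1 probe set per gene, eBayes with no trend, a fit of the 4 arrays of a comparison alone, the replicate number as a block, and each array left out. The number of members that passed in limma, 8 in TAK1-deficient against wild-type Igκ+ cells, was 4 of 4 tested with 1 probe set per gene and 5 to 8 with an array left out. Against wild-type Igλ+ cells it was 6, and 11 with median centring, 11 with scaling on the spiked controls and 5 to 7 with an array left out. Between wild-type groups it was 0 under each alternative. With the level adjustment 6 Map3k7 probe sets were below 0, and 6 with each array left out, a check added after the data were seen. With the replicate number as a block the counts were 8, 0 and 6, so no count changed. The difference between replicates had a correlation of 0.19 between the wild-type groups. For TAK1-deficient cells it was 0.0020 with wild-type Igκ+ and -0.00029 with wild-type Igλ+ cells. The unchanged counts do not show whether samples of the same replicate number share a preparation. The median over all probe sets in TAK1-deficient against wild-type Igκ+ cells was 1.53 as deposited, -0.19 when quantile normalized, -0.35 when median centred, -0.86 when scaled on the spiked controls and -0.01 with the level adjustment. In the same comparison 81.9% of all genes passed in limma with 1 probe set per gene.

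Directions turned as follows, and beyond the construction of each scaling the cause was not tested. In TAK1-deficient against wild-type Igκ+ cells, and then against wild-type Igλ+ cells, quantile normalization gave 0.13 and 0.13 for Tab2 1423462_at, -1.13 and -1.20 for Tab1 1426898_at and -2.01 and -2.01 for Map3k7 1447801_x_at. Median centring gave -1.37 and -1.35 for Tab1 and -1.90 and -1.82 for 1447801_x_at. Scaling on the spiked controls gave -2.01 and -1.999 for Tab1 and -2.43 and -2.36 for 1447801_x_at. The level adjustment gave 0.72 and 0.72 for Tab2 1423462_at, 0.63 and 0.84 for Tab2 1451003_at, -0.031 and -0.18 for Tab1, -1.35 and -1.44 for 1447801_x_at and, against wild-type Igλ+ cells, 0.12 for Tab3. Map3k7 1426627_at ranged from -2.02 to 0.033 and from -1.82 to 0.23 with an array left out. Between wild-type groups, where 0 members passed, median centring and scaling on the spiked controls gave -0.15 and -0.14 for Map3k7 1419988_at, -0.14 and -0.13 for 1449693_at, -0.078 and -0.071 for 1447801_x_at (-0.0073 after quantile normalization), -0.19 and -0.19 for Tab2 1423462_at and -0.023 and -0.015 for Tab1. With an array left out the ranges there were -0.10 to 0.18 for 1419988_at, -0.16 to 0.27 for 1449693_at, -0.34 to 0.10 for 1455441_at, -0.53 to 0.13 for 1426627_at, -0.040 to 0.22 for 1447801_x_at, -0.045 to 0.047 for Tab2 1423462_at and -0.18 to 0.48 for Tab1. Where 1 array of a group remains, its spread is taken from the other groups.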
